A study of Mus musculus with 23 samples.

Results

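Scrapings of the mouse small intestine carried very different amounts of smooth muscle transcript from mouse to mouse, and the account below compares the mice at the 2 ends of that range. For each of 23 arrays, 1 per mouse, a muscle score was taken as the mean log2 ratio of the mouse's Cy5 signal to the Cy3 signal of a common pool over the 14 spots of Myh11, Actg2, Des, Cnn1 and Tagln, after the median log2 ratio of the array had been taken off. Des has 10 of these 14 spots and the other 4 genes 1 each, so the score leans on Des. With each gene counted once, after background correction and loess, 15 of the 16 mice chosen here fell at the same end. The members were thus chosen by the measured signals of these 5 genes. The 8 arrays with the highest score (the high end) were set against the 8 with the lowest (the low end), 16 of 23 arrays in all, and the other 7 lay between them. No treatment separates the ends. The mice were ordered by a measured value, so a p-value below says how regularly another transcript followed that order beyond the spread between mice, and nothing about the effect of a condition.

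The animals were male adult C57BL/6J mice kept first on normal-fat chow for 3 weeks of adaptation and afterwards on high-fat feed for 12 weeks. The high-fat feed was either plain (HF, 12 mice) or held 0.33% quercetin by weight (HF-Q, 11 mice), and all mice were fasted for 2 to 4 h before dissection. The authors had removed a twelfth HF-Q animal because of an abscess, and they asked about genotoxicity of this plant flavonol. Cy5-labelled RNA of each mouse was hybridised with a Cy3-labelled pool that held equal amounts from every mouse, and dyes were not swapped. The low end held 3 HF and 5 HF-Q mice, the high end 4 HF and 4 HF-Q mice.

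The wall of the small intestine is built in layers. Epithelium lines villi and crypts, a connective tissue with vessels and immune cells lies under it, a thin muscle sheet bounds the mucosa, and the thick outer muscle with its nerve plexus drives peristalsis. Smooth muscle contracts when calcium activates the kinase that phosphorylates the myosin light chain, and smooth muscle genes are switched on by serum response factor bound to a short DNA element, the CArG box. Scraping takes off mucosa, and how much of the layers beneath comes with it can vary. In bulk RNA, fewer cells of a type and less RNA per cell cannot be told apart.

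The contractile genes were searched for CArG boxes, because these are the sequences that smooth muscle genes are known to share. Of the contractile genes measured here besides the 5 of the score, 29 had a promoter in the RefSeq table (GRCm38.p6), and 6 of these (20.7%) held a box in the 250 bases before the start of transcription on either strand, against 1.61% of the promoters of all named genes tested. The windows below show the box in capitals with 15 bases on each side, read 5′ to 3′ on the strand of the gene. Myl9, Filip1l and Vcl belong to the genes that were higher at the high end, with boxes that begin 161, 62 and 227 bases before the start. Myl6, Cnn2 and Ldb3 did not pass the test, with boxes 50, 56 and 35 bases before it.
Myl9: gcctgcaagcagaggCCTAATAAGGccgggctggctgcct
Filip1l: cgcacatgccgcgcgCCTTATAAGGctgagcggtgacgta
Vcl: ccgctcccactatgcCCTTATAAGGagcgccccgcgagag
Myl6: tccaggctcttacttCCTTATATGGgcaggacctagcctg
Cnn2: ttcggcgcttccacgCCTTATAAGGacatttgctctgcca
Ldb3: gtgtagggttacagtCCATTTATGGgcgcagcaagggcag

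In GRCm38.p6 these windows are chr2:156775288-156775327 on the plus strand for Myl9, chr16:57549165-57549204 on the plus strand for Filip1l and chr14:20929156-20929195 on the plus strand for Vcl. Those of the other 3 are chr10:128493035-128493074 on the minus strand for Myl6, chr10:79988529-79988568 on the plus strand for Cnn2 and chr14:34588692-34588731 on the minus strand for Ldb3. Of the contractile genes that were higher at the high end, 3 of 19 with a promoter (15.8%) held a box, and of those that were not called, 3 of 10. Of the 5 genes of the score, 2 had a promoter in the table, and neither held a box in this window. A match is a description of these letters and not a bound site.

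The score itself ran from -1.08 in HF-Q mouse 2 to 1.97 in HF mouse 7. At the low end it ran from -1.08 to 0.016 with a median of -0.20, and at the high end from 0.63 to 1.97 with a median of 1.05. The mean of the ends differed by 1.49, a 2.81-fold difference, and this is what the choice of mice fixed. The last array inside the low end stood at 0.016 and the first outside at 0.13, while the first inside the high end stood at 0.63 and the last outside at 0.59, so the upper boundary falls in a dense stretch. Both diets covered much of the range, with a mean score of 0.48 ± 0.62 (SD, n = 12) in HF and 0.30 ± 0.82 (SD, n = 11) in HF-Q.

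**Figure D1:**
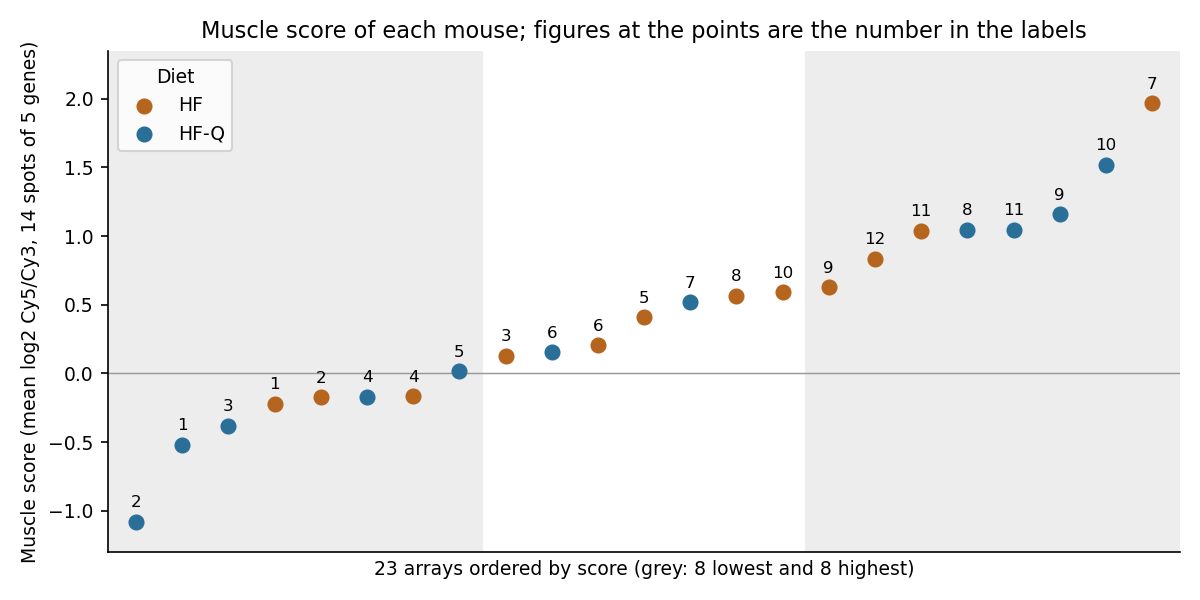
Muscle score of each of the 23 mice (vertical axis, mean log2 Cy5/Cy3 over the 14 spots of 5 genes, 10 of them of Des), ordered from lowest to highest and coloured by diet, with the number that the labels give each mouse at its point. Both diets occur at both ends (grey), whereas the numbers run from 1 to 5 at the low end and from 7 to 12 at the high end.

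All 5 genes of the score were well above background on 23 of 23 arrays, and their values are given as a description, with no test. Actg2, the gamma smooth muscle actin of the gut, ran from -1.90 to 0.021 at the low end (median -0.49) and from 0.99 to 2.65 at the high end (median 1.48). Cnn1, the actin-binding calponin of differentiated smooth muscle, ran from -1.70 to 0.073 (median -0.32) and from 1.15 to 2.75 (median 1.64). On the mean of the log ratios Actg2 differed 4.86-fold and Cnn1 4.98-fold. Myh11, the smooth muscle myosin heavy chain, had medians of -0.19 and 1.14 and a ratio of 2.85-fold. Des, the intermediate filament protein desmin, had medians of -0.25 and 0.99 and a ratio of 2.60-fold. Tagln, the actin-binding transgelin, had the narrowest span, with medians of 0.35 and 1.25 and a ratio of 1.98-fold. The ranges of the ends did not meet for any of the 5, and Tagln and Cnn1 can also be made by pericytes and activated fibroblasts.

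The pool channel served as a control of the array. In Cy3, which held the same pool everywhere, the 5 genes differed between the ends by 0.0094 to 0.052 log2 units, against 0.97 to 2.20 in Cy5. The probes of these genes lie, on build mm9, on chromosome 6 at 83462904 to 83462963 for Actg2, chromosome 9 at 21913058 to 21913117 for Cnn1 and 45738097 to 45738156 for Tagln, and chromosome 16 at 14202190 to 14202249 for Myh11.

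The numbers that the labels give the mice went with the score. Low-end mice had numbers 1 to 5 and high-end mice 7 to 12, so that 0 numbers occurred at both ends. Over the whole series the 12 arrays numbered 1 to 6 scored -1.08 to 0.41 and the 11 arrays numbered 7 to 12 scored 0.52 to 1.97, with no overlap. The labels do not say what the number stands for, and between the ends the muscle score and the number cannot be told apart. The slides were spread less evenly than the diets, with 1, 3 and 4 low-end arrays and 4, 1 and 3 high-end arrays on slides 1, 2 and 3, and 5 of 8 low-end but 2 of 8 high-end arrays lay in the first row of their slide. The number of probes above background was similar, with medians of 29179 and 28303 of 55681.

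Of 21472 genes measured besides those of the score, 2817 (13.1%) were higher and 1759 (8.19%) lower at the high end, at an adjusted p under 0.05. Among the 15141 of them with a RefSeq name, 14.8% were higher and 6.83% lower. The test was limma's moderated linear model on log2(Cy5/Cy3) with diet as a covariate, two-sided, and p-values here are adjusted over all genes by the method of Benjamini and Hochberg. Most differences were small, since 55 genes were over 2-fold higher and 32 over 2-fold lower. The values of the ends did not overlap for 395 genes that were higher (1.84%) and 87 that were lower (0.405%). The balance of the 2 directions rests on the normalization: 61.6% of the calls were higher here, 88.3% when the raw ratios were centred on their median without loess, and 35.7% in the authors' deposited table. The numbers of calls also moved with single mice, from 2175 to 3019 higher and from 1144 to 2017 lower when each of the 16 was left out, the lowest count of lower genes coming without HF-Q mouse 9.

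Contractile machinery that the score did not use led the list. Myl9, the regulatory myosin light chain whose phosphorylation triggers contraction, ran from -2.53 to -0.88 at the low end (median -1.31) and from 0.29 to 1.45 at the high end (median 0.53). It differed by 2.12 ± 0.21 (SE) on the log2 scale, 4.34-fold, with a limma adjusted p of 7.46e-05. Acta2, the alpha actin of vascular and visceral smooth muscle, ran from -1.43 to -0.38 (median -0.77) and from 0.35 to 1.17 (median 0.56). Its difference was 1.53 ± 0.14 (SE), 2.88-fold, with a limma adjusted p of 7.11e-05. No high-end mouse overlapped a low-end mouse in either transcript.

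Proteins that anchor or cross-link the filaments followed. Synpo2, an actin-bundling protein of the muscle Z-disc, had medians of -0.84 and 0.54 and differed by 1.48 ± 0.16 (SE). Pdlim3, a LIM protein that binds alpha-actinin, had medians of -0.88 and 0.44 and differed by 1.46 ± 0.14 (SE). Tpm2, the beta tropomyosin, differed by 1.20, the actin cross-linker Flna by 1.16 and Csrp1, a LIM protein of smooth muscle, by 1.03. Dmpk, the kinase whose gene carries the repeat of myotonic dystrophy, had medians of -0.25 and 0.66 and the smallest p of all genes, with a difference of 0.95 ± 0.086 (SE). All of these had ends that did not overlap.

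Over the contractile list as a whole, 33 of 35 genes were measured, 21 were called higher and 0 lower, and the median difference was 0.50 against -0.014 over all genes tested. The list was not uniform. Mylk, the myosin light chain kinase, was not called at -0.16 ± 0.10 (SE; limma adjusted p = 0.27), with 2 of 2 probes in the same direction and ranges that overlapped. Its sign turned when the number in the labels, described with the fit of both terms below, was entered with the score: 0.33 ± 0.11 (SE) along the score (limma adjusted p = 0.25), and -0.076 per step of the number (0.012). Myl6, the essential light chain that many cell types make, stood at -0.082, and Tpm1, Tln1, Ilk and Dstn, which are widely expressed, at -0.028, 0.11, 0.056 and 0.038. Vcl, the adhesion protein vinculin, was called at 0.25, but 1 of its 2 probes went the other way. The mean of the contractile list by mouse ran from -0.44 to -0.12 at the low end and from 0.17 to 0.52 at the high end.

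Among the factors that shape gut smooth muscle, 5 of 11 measured were called higher and 0 lower (median 0.059). Foxf1, a forkhead factor of the gut mesenchyme, had medians of -0.36 and 0.39 and a difference of 0.83 ± 0.12 (SE), and its relative Foxf2 differed by 0.60. Of channels and receptors, 5 of 16 were called higher and 0 lower (median 0.165). Abcc9, a subunit of ATP-sensitive potassium channels, differed by 0.57 ± 0.068 (SE) with no overlap of the ends. The subunits of the nitric oxide receptor, Gucy1a1 and Gucy1b1, differed by 0.62 and 0.53, and P2rx1, an ATP-gated cation channel, by 0.50. Receptors for acetylcholine and tachykinins did not pass, with Chrm3 at -0.045 and Tacr2 at -0.20. Mrvi1, the partner of the cGMP-dependent kinase in smooth muscle, which stood outside the lists, differed by 0.73 ± 0.072 (SE). Markers of striated muscle were mostly below background, with 4 of 15 measured, 0 called higher and 1 lower.

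Pacemaker cells, neurons and glia work with the muscle layer. Of interstitial cells of Cajal, the pacemakers of the gut, 3 of 5 markers were called higher. Kit, the receptor these cells need, ran from -0.50 to 0.19 at the low end and from 0.20 to 0.51 at the high end, a difference of 0.50 ± 0.10 (SE), while Ano1, their calcium-activated chloride channel, was not called at 0.17. Kit is also carried by mast cells, and of 5 mast cell markers limma called 0, with 1 lower at an unadjusted p under 0.05. Gdnf, the factor that guides enteric neurons, had medians of 0.060 and 0.38 and no overlap, although it was above background on 2 of 8 low-end arrays. Among enteric neuron markers 3 of 16 were called higher and 1 lower (median 0.029), beside 13.1% and 8.19% of all genes. The marker called lower was Nos1, at -0.19 (limma adjusted p = 0.034). The microtubule regulator Stmn2 was not well above background on any low-end array. Its Cy5 signal alone was at least 1.47-fold higher at the high end, a bound open to dye bias, and its log ratio to the pool differed by 0.46 (limma adjusted p = 0.010). Of 9 glial markers 3 were called higher, led by Cryab, a small heat shock protein that muscle also makes, at 0.81. The 1 called lower was Erbb3, at -0.31 (limma adjusted p = 0.042).

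**Figure D2:**
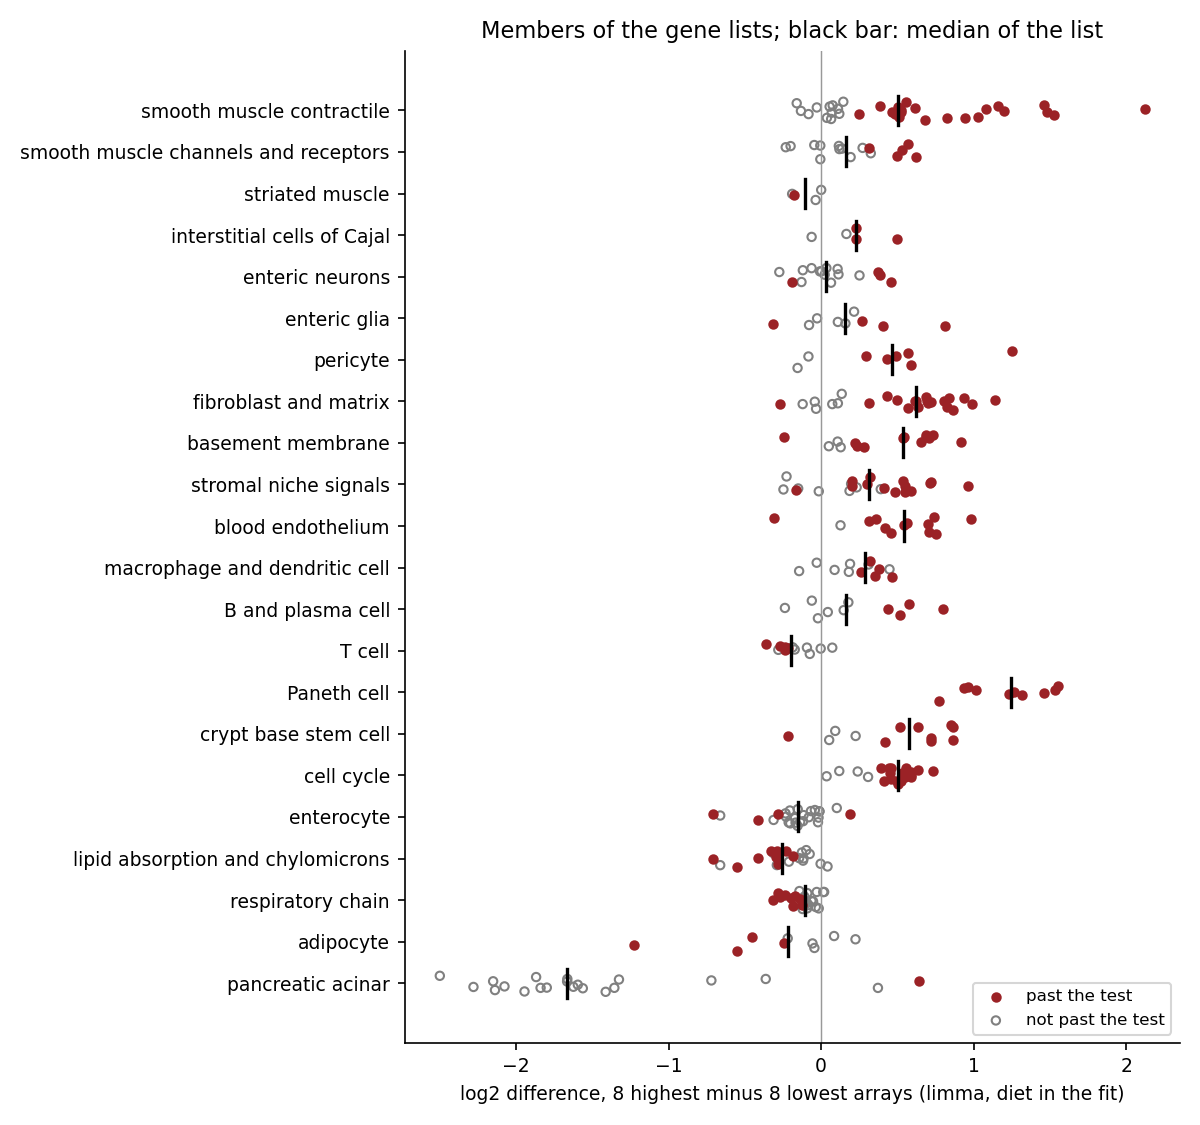
Log2 difference between the high and the low end for each member of 22 gene lists (horizontal axis), filled where limma's adjusted p was under 0.05, with the median of each list as a black bar. All 10 Paneth cell genes and 20 of 24 cell cycle genes were called higher beside the 21 contractile genes, whereas the pancreatic genes, with a median of -1.66, were widely spread and 20 of 21 were not called.

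Transcripts of connective tissue and vessels were also higher at the high end. Of the fibroblast and matrix list, 18 of 25 genes were called higher and 1 lower, with a median of 0.62. Mgp, a matrix protein that holds back calcification, ran from -0.83 to -0.073 at the low end and from 0.16 to 1.19 at the high end, a difference of 1.14 ± 0.13 (SE). The small proteoglycans Ogn and Dcn differed by 0.99 and 0.84, and Col3a1, the type III collagen, by 0.93. The exception was the proteoglycan Bgn, called lower at -0.27. The mean of the list by mouse ran from -0.60 to -0.0081 at the low end and from 0.20 to 0.45 at the high end.

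Of the basement membrane list 11 of 15 genes were called higher and 1 lower, with a median of 0.53. The type IV collagen chains Col4a1 and Col4a2 differed by 0.92 and 0.74, the laminin chain Lamc1 by 0.65 and perlecan, Hspg2, by 0.53, each with no overlap of the ends. Of pericyte markers 6 of 8 were called higher. Rgs5, a regulator of G-protein signalling in pericytes and vascular muscle, ran from -1.21 to -0.43 and from 0.11 to 1.39, a difference of 1.25 ± 0.16 (SE), and Pdgfrb, the receptor that recruits these cells, differed by 0.59. Of blood endothelial markers 11 of 13 were called higher and 1 lower, with a median of 0.54. Plvap, which forms the diaphragms of fenestrated capillaries, differed by 0.98 and the junction proteins Cdh5 and Cldn5 by 0.56 and 0.42. Kdr was called lower at -0.31, but 1 of its 2 probes went the other way, and Pecam1 was not called at 0.13. Muscle of the wall, muscle of vessels and pericytes share many muscle and pericyte transcripts and cannot be told apart by them in bulk RNA.

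Stroma sends signals to the crypt that keep its stem cells. Of 22 measured niche signals 13 were called higher and 1 lower (median 0.31). Grem1, a BMP antagonist made by muscle and fibroblasts beneath the crypts, differed by 0.96 ± 0.16 (SE). Igfbp5, a secreted binding protein of insulin-like growth factors, had medians of -0.26 and 0.46, a difference of 0.72 ± 0.084 (SE) and no overlap. Rspo3, an R-spondin that strengthens Wnt signals, was not well above background on any low-end array. Its Cy5 signal alone was at least 1.43-fold higher at the high end, and its log ratio to the pool differed by 0.48 (limma adjusted p = 0.0014).

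Crypt epithelium stood higher with the muscle. All 10 Paneth cell genes measured, of 14 listed, were called higher, with a median of 1.25, above that of the contractile list. Defa3, an alpha-defensin, ran from -1.31 to 0.78 at the low end (median -0.24) and from 0.92 to 1.63 at the high end (median 1.23), a difference of 1.46 ± 0.27 (SE) with a limma adjusted p of 0.0026. The defensins are near-identical copies, and signal may be shared among them. Outside that family, Itln1, a lectin of the secretory lineage, differed by 1.27 and the transcript of the phospholipase gene Pla2g2a by 0.96. The mean of the list by mouse ran from -1.58 to 0.26 at the low end and from 0.22 to 0.93 at the high end, so the low end was the more scattered.

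Of 12 crypt base stem cell genes 8 were called higher and 1 lower (median 0.58). Lgr5, the R-spondin receptor that marks these cells, ran from -1.02 to 0.24 (median -0.38) and from 0.12 to 0.63 (median 0.32), a difference of 0.72 ± 0.15 (SE). Smoc2, another marker, differed by 0.85, Sox9, a factor of crypt progenitors, by 0.64, and Rgmb, a BMP co-receptor, by 0.42 with no overlap. Of 24 cell cycle genes 20 were called higher and 0 lower (median 0.50). Mki67, found in all dividing cells, ran from -0.86 to 0.23 (median -0.70) and from 0.053 to 0.35 (median 0.15), a difference of 0.73 ± 0.13 (SE). The replication helicase subunits Mcm4, Mcm7 and Mcm5 differed by 0.59, 0.55 and 0.50. Neurog3, which commits crypt cells to the enteroendocrine fate, was called at 0.69. It is 1 of the 2 called higher among the 14 enteroendocrine markers, with 1 called lower, beside 13.1% and 8.19% of all genes.

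Villus functions went the other way or did not pass. In the list of lipid absorption and chylomicrons, 0 of 22 genes were called higher and 10 lower, with a median of -0.26. Apoa4, an apolipoprotein of chylomicrons, ran from -0.013 to 1.18 at the low end (median 0.51) and from -0.59 to 0.28 at the high end (median -0.17), a difference of -0.71 ± 0.15 (SE; limma adjusted p = 0.0052). Mogat2, which rebuilds triglycerides in the enterocyte, differed by -0.33, and Mttp, which loads lipid onto apolipoprotein B, by -0.28; both lost their call under median centring without loess. Of 26 general enterocyte markers 3 were lower and 1 higher, beside 8.19% and 13.1% of all genes. Brush border enzymes such as Sis at -0.011 and Alpi at -0.081 did not pass. Of 24 respiratory chain subunits 9 were lower and 0 higher (median -0.10), among them Cox7a2 at -0.28 and Ndufa1 at -0.31, and these too were not called under median centring. Of 24 genes of fatty acid oxidation limma called 0, with 0 at an unadjusted p under 0.05.

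Immune cells did not move as one. Of 12 macrophage and dendritic cell markers 5 were called higher and 0 lower, among them Cx3cr1, the fractalkine receptor, at 0.47 and Itgax, an integrin of dendritic cells, at 0.35. Of 10 B and plasma cell markers 4 were called higher and 0 lower. These were Jchain, which joins IgA into dimers, at 0.80, and Tnfrsf17, Mzb1 and Pou2af1, at 0.57, 0.51 and 0.44. By contrast 5 of 12 T cell markers were called lower and 0 higher (median -0.20), with Cd3d at -0.27 and Cd3e at -0.24, calls that were lost under median centring (limma adjusted p = 0.245 and 0.153) and with 10 mice at each end. Of 8 MHC class II genes limma called 0, with 1 at an unadjusted p under 0.05.

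Fat, pancreas and liver lie next to the gut, and their markers were read as well. Of 9 adipocyte markers 4 were called lower and 0 higher. Cfd, the complement factor that fat cells secrete, ran from -0.035 to 1.40 at the low end (median 0.40) and from -1.29 to -0.10 at the high end (median -0.66), a difference of -1.23 ± 0.20 (SE) with a limma adjusted p of 0.0017. The hormone genes Retn and Adipoq differed by -0.45 and -0.55, and Adipoq was above background on 2 of 8 high-end arrays. Pancreatic acinar genes had a median of -1.66, but their mean by mouse ran from -2.97 to 1.94 at the low end and from -2.92 to 1.62 at the high end, and only Pnliprp2, a pancreatic lipase-related protein, was called, at 0.64. Of the 21 acinar genes 19 had a negative difference, and 12 of these had an unadjusted p under 0.05. With the acinar mean as a covariate 3139 genes were higher and 2125 lower. Of 6 measured hepatocyte markers 1 was called higher and 0 lower, beside 13.1% and 8.19% of all genes.

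Genes outside the lists gave the smallest p in the lower direction. Car3, a carbonic anhydrase abundant in fat and muscle, ran from 0.11 to 1.24 at the low end (median 0.33) and from -1.09 to -0.28 at the high end (median -0.74), a difference of -1.21 ± 0.15 (SE; limma adjusted p = 3.27e-04). Dffa, the inhibitor of a nuclease that cuts DNA in apoptosis, differed by -0.43. Mcu, the pore of the mitochondrial calcium uniporter, differed by -0.46 and Spcs2, a subunit of signal peptidase, by -0.32. The 7 mice between the ends, which this fit did not use, had a median between those of the ends for 12 of 12 of the leading genes in each direction. The same held for 2332 of 2817 genes called higher, 1505 of 1759 called lower and 10574 of all 21472. Genes picked for a wide gap between the ends tend to show this, so it is not a separate check.

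**Figure D3:**
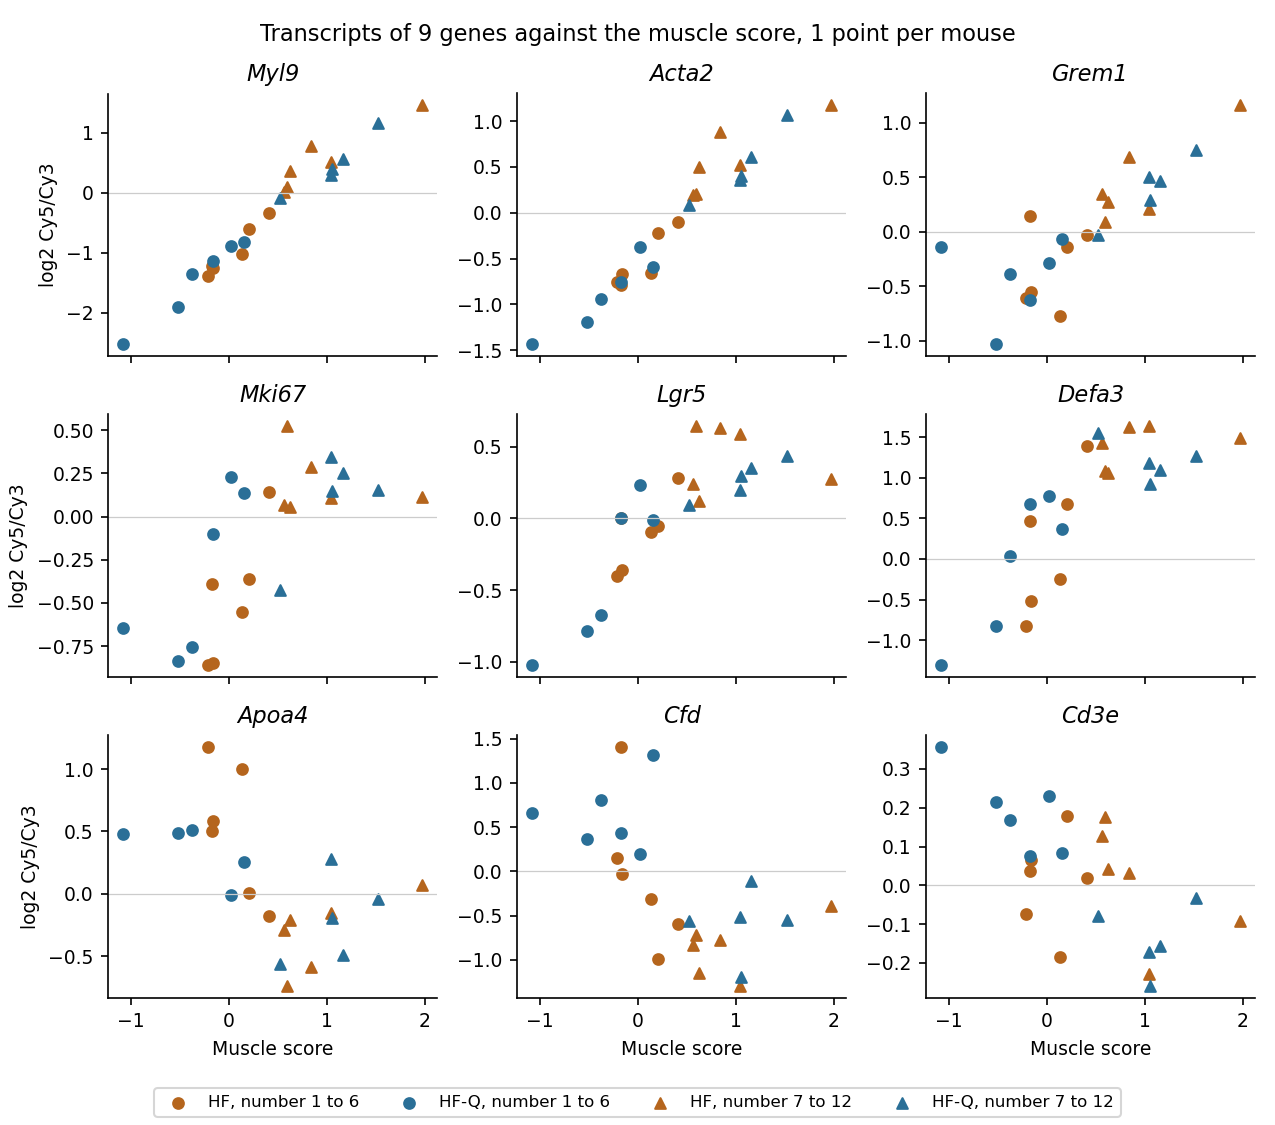
Log2 ratio to the pool (vertical axes) against the muscle score (horizontal axes) for 9 genes, 1 point per mouse, with diet by colour and the number in the labels by shape. Myl9 and Acta2 climb along the whole range, whereas Mki67, Lgr5 and Defa3 climb among mice numbered 1 to 6 and show no such climb among those numbered 7 to 12.

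Because score and number could not be told apart between the ends, both were entered as numbers in 1 limma fit over all 23 arrays, a fit added after the data were seen. Its score values are scaled to the distance of 1.49 between the ends. There 48 genes were called on the score (45 higher, 3 lower) and 800 on the number (440 higher, 360 lower). Of the contractile list 10 of 33 were called on the score: Myl9 at 1.64 ± 0.10 (SE), Acta2 at 1.09, Pdlim3 at 1.05, Synm, an intermediate filament protein, at 1.18, Tpm2 at 0.97, Synpo2 at 1.16, Flna at 0.86, Csrp1 at 0.71, Tgfb1i1 at 0.54 and Hspb6 at 0.50. Rgs5 was called at 1.31 ± 0.089 (SE) and Ogn at 0.83. Of the Paneth cell, stem cell, cell cycle, blood endothelium and basement membrane lists 0 genes were called on the score, while 7 cell cycle, 4 endothelial and 3 stem cell genes were called on the number. The Paneth list had 0 genes called on the number too, and its median along the score, 0.66, was above the 0.30 of the contractile list. Of the contractile list 3 genes, Myl9, Acta2 and Pdlim3, were called higher and 1, Mylk, lower on the number. Smoc2, for instance, was 0.11 higher per step of the number (limma adjusted p = 0.023) and 0.20 along the score (0.70), and Apoa4 changed by -0.14 per step (0.014) and was not called along the score at 0.23. With only the 2 ends and the number as a covariate, 0 genes were called by limma, 1235 had an unadjusted p under 0.05, and the smallest adjusted p was 0.64.

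**Figure D4:**
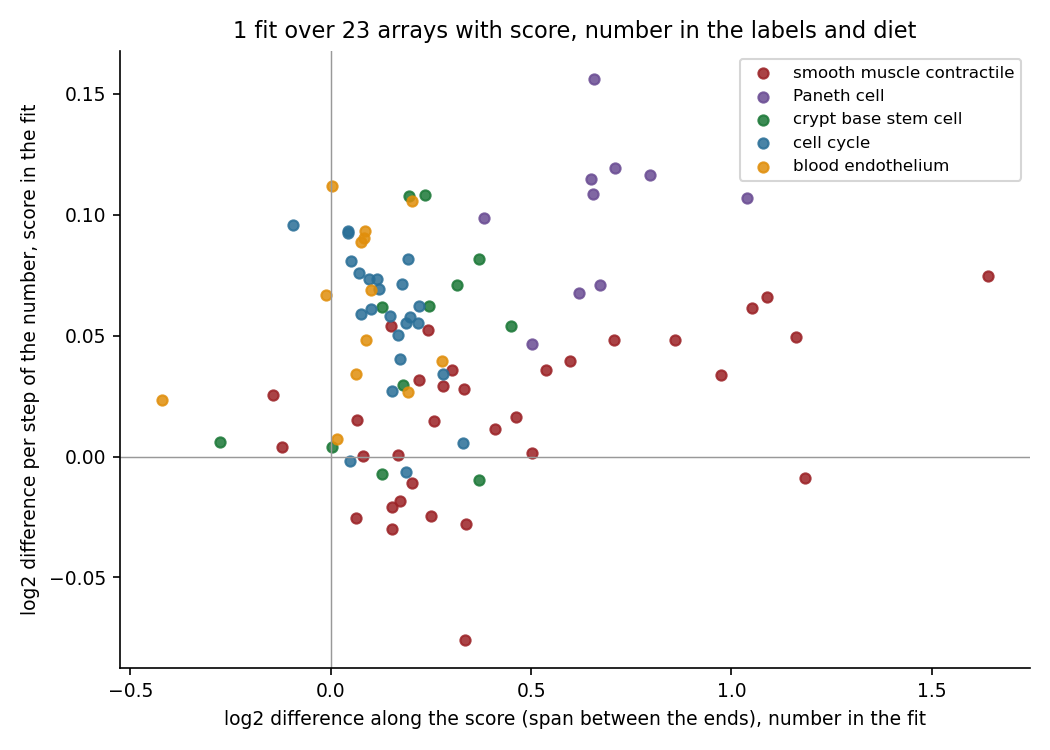
Score coefficient (horizontal axis, log2 over the distance between the ends) and number coefficient (vertical axis, log2 per step) from 1 limma fit with both terms and diet, for the genes of 5 lists. Single contractile genes reach furthest to the right, up to 1.64 for Myl9, but the Paneth cell list had the highest median along the score, 0.66. The medians were 0.30 for the contractile, 0.21 for the stem cell, 0.15 for the cell cycle and 0.082 for the endothelial list. Single genes of the lists overlap.

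The mice were also split at the number. Among the 12 mice numbered 1 to 6, 639 genes rose and 42 fell along the score in limma, and among the 11 numbered 7 to 12, 7 rose and 0 fell. The contractile list had medians of 0.27 and 0.36 in these subsets, positive in both, with 9 and 3 of 33 genes called higher. Other lists were also positive in both, among them MHC class II (0.50 and 0.30), goblet cell (0.21 and 0.26) and basement membrane (0.51 and 0.088). The Paneth list had medians of 2.40 and 0.0997, and the cell cycle list 1.17 and -0.0064, with 21 of 24 and 0 of 24 genes called. The blood endothelial median was 0.62 and then -0.12, and that of lipid absorption -0.36 and then 0.15. Whether the slopes differ between the subsets was not tested. The 12 leading higher genes kept their direction in both subsets, 12 of 12 in each, and the 12 leading lower genes in 12 and 8.

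No difference between the diets in these relations was detected. A slope on the score that differed between HF and HF-Q was called for 0 genes by limma, with 612 at an unadjusted p under 0.05 and 1.00 as the smallest adjusted p. With the score in the fit, 0 genes differed between HF-Q and HF (1574 at an unadjusted p under 0.05, smallest adjusted p of 0.59), and without it also 0 (972, smallest adjusted p of 0.95). Each p-value measures the spread between individual mice, 1 array each.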

How the data were processed

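The members and the gene lists were chosen with earlier results of these data known. Per the submitters' processing notes, scanning software was Agilent Feature Extraction 10.7.3.1. The deposited scanner files hold Cy5 and Cy3 intensity values and the authors' log10 ratio, which per the file headers had background taken off and dyes normalized. A further deposited table holds the authors' log2 values for 31718 spots, whose normalization the sources used here do not give. A protocol field names liver for the RNA extraction against all other labels, which name small intestine.

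With limma 3.58.1 in R 4.3.3, intensities were corrected by normexp (offset 50) and loess within arrays, with 3671 control spots at weight 0 and 260 to 355 outlier spots per array left missing. Probes stayed in if, for 1 diet or the other, Cy5 exceeded background clearly on 50% of arrays or more, which left 29249 of 55681 probes (52.5%). The brightest probe stood for a gene, giving 21472 genes, 15141 of them named through RefSeq (GRCm38.p6). The score used the uncorrected mean signals, as defined in the report.

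Genes named in the text are those of the score, the 12 with the smallest p in each direction, up to 4 per list by smallest p, and contractile genes that did not pass. Lgr5, Csrp1, Tpm2, Flna, Synm, Hspb6, Chrm3, Tacr2, Tpm1, Tln1, Ilk, Dstn, Myl6, Sis, Alpi, Bgn, Kdr, Pecam1, Cnn2, Ldb3, Vcl and Filip1l were added after their values were seen, some of them to show members that did not pass or went the other way. A few genes that this rule names are not reported here. Replicate numbers were checked as pairs: deviations of the 11 same-number pairs correlated at -0.345 to 0.391 (median 0.046, 5 of 11 over 0.1). The main fit did not treat same-number mice as pairs. What else mice with equal or close numbers share was not tested. On simulated data the fit recovered 78% of genes changed by 0.5 and 96% of those changed by 1 on the log2 scale, 100 genes each among 21472, with 7 false calls. The simulated noise was independent from gene to gene, and far fewer genes changed than the 21.3% called in the mice. The 7 false calls thus do not give the rate in the real comparison. The number of arrays limits the precision.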

Additional observations from a re-analysis of the deposited data

Results flagged for a closer look

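In 18 of 312 groups of 8 mice, 1 mouse stood far from the other 7 by Dixon's criterion, which flags about 1 in 20 groups by chance. HF mouse 2 of the low end stood apart in several transcripts: Ano1 at 0.57 (others -0.44 to -0.031), Nos1 at 0.27, Mgp at -0.073, Pnliprp2 at 0.64 and the mean of the tuft cell markers at 0.81 (others -0.066 to 0.16). HF-Q mouse 2, the lowest in muscle score, stood apart at the low end in Des at -1.03, Tagln at -0.32 and Phlda3, a p53 target, at -0.87. HF-Q mouse 3 was low in Itgax at -0.70, and HF mouse 1 was high in Mylk at 0.20.

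At the high end, HF mouse 11 had a mean of 1.62 for the pancreatic acinar genes where the others lay between -2.92 and -1.19, with Cela2a, an elastase, at 1.51. HF mouse 7, the highest in muscle score, was low in Plvap at -0.53 (others 0.17 to 0.63) and in Ewsr1 at 0.053. HF mouse 9 was low in the means of the cell cycle genes, at -0.066 (others 0.18 to 0.28), and of the markers of interstitial cells of Cajal, at 0.045. HF mouse 12 was high in Mcm7 at 0.40, and HF-Q mouse 9 was low in the mean of the hepatocyte markers at -0.15.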

How the results depend on the processing

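Against 2817 genes higher and 1759 lower, the counts were 3510 and 464 under median centring without loess, 1753 and 3158 in the authors' deposited table, 1649 and 668 with the array row as a block, and 19 and 39 within slide 3. Along the score they were 177 and 14 within slide 1, 234 and 13 within slide 2, 203 and 100 within slide 3, 639 and 42 within numbers 1 to 6, and 7 and 0 within numbers 7 to 12. With the number as a covariate they were 45 and 3 along the score, and 0 and 0 between the ends. Leaving out each mouse gave 2175 to 3019 higher and 1144 to 2017 lower. The fits by number, row, slope within a slide and single mice were chosen after seeing the data. The subsets hold fewer arrays, and the cause of these differences in counts was not tested. Mylk, at -0.16, turned to 0.067 within slide 3 and to 0.33 along the score with the number as a covariate. With the shared number as a random replicate block the counts were 2920 and 1849, which held all 2817 and 1759 genes, and 2 of 12 HF mice correlated best with their own number. The diet results were rerun in only some settings and stayed at 0 genes in them. These were median centring, slide as a block, no filter on dim probes and the replicate block. Probes near background limit what could be seen of enteric neurons.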

Other observations

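Targets of p53 were examined because the study's topic is genotoxicity, with DNA damage known to activate p53. Of 25 measured targets 6 were called higher and 2 lower at the high end, with a median of 0.039, beside 13.1% and 8.19% of all genes. The targets named here were all higher. Aen, a nuclease of the apoptotic response, had medians of -0.33 and 0.12 with no overlap and a difference of 0.50 ± 0.095 (SE), and Phlda3, an inhibitor of the kinase Akt, had medians of -0.36 and 0.031 and a difference of 0.43 ± 0.088 (SE), also with no overlap. Ddb2, a damage-binding protein of nucleotide excision repair, differed by 0.33 and Trp53inp1, a cofactor of p53, by 0.47. The cell cycle genes were higher in the same mice, and their part in these differences was not tested. In the fit with score and number, 0 of the 25 targets were called on the score, and 1 was higher and 1 lower on the number. Ddb2 stood at -0.065 along the score (limma adjusted p = 0.81) and at 0.052 per step of the number (0.026).

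Segments of the small intestine were not separated by the ends. Of 12 markers of the distal and 11 of the proximal small intestine, limma called 0 in either direction, with 1 of each list lower at an unadjusted p under 0.05. Fgf15, the hormone of the ileum, ran from -1.77 to 1.94 at the low end and from -1.89 to 0.77 at the high end. With the mean of the distal markers as a covariate, 2886 genes were higher and 1737 lower at the high end. Of 8 tuft cell markers limma called 0, with 1 lower at an unadjusted p under 0.05. Among 9 goblet cell markers 1 was called higher and 0 lower, beside 13.1% and 8.19% of all genes.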
